A study of Mus musculus with 6 samples.

Results

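The 10 genes described here encode surface molecules through which B cells exchange signals with T cells and with survival factors of the BAFF family. They are Cd40, Cd80, Cd86, Cd83, Icosl, Cd274, Pdcd1lg2, Tnfrsf13b, Tnfrsf13c and Tnfrsf17, and they were chosen by symbol, together with all 17 probe sets that the platform annotation gives to 1 of these symbols alone. They are 10 of the 18194 genes that could be named on the array. These genes and the gene lists below were chosen with earlier results of these data known. Counts of them set beside all genes are therefore descriptions and not independent support. CD40 receives CD40 ligand from helper T cells, and its engagement is a main signal for B cell activation, germinal centre formation and class switching. CD80 and CD86, the B7 molecules, bind CD28 and CTLA-4 on T cells, and ICOS ligand binds ICOS. PD-L1 and PD-L2 bind PD-1 and restrain T cells. BAFF-R binds the cytokine BAFF, whereas TACI and BCMA bind BAFF and APRIL, and these receptors govern the survival of B cells and plasma cells.

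The cells were A20, an established B lymphoma line from a BALB/c mouse, grown in serum-containing medium, and RNA was measured on 6 Affymetrix mouse arrays with 1 array per condition. The groups of the drug arm were cells given SP600125 alone for 24 h, cells given TGF-β for 12 h with SP600125, and cells given TGF-β for 24 h with SP600125. The groups without the drug were unstimulated cells with DMSO, cells given TGF-β for 12 h with DMSO, and cells given TGF-β for 24 h with DMSO. SP600125 is an inhibitor of the JNK kinases, and the design asks how JNK bears on the response of B cells to TGF-β. The unstimulated array of the drug arm had 24 h of SP600125, whereas its TGF-β 12 h array had 12 h of it. All groups are 1 tumour line, so the data describe that line and not B cells at large. The labels state no dose of TGF-β or SP600125.

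Values are the deposited linear signals, which lay on 1 scale because every array had the same 2% trimmed mean. A floor of 74.2, the 50th percentile over the 6 arrays, replaced any lower signal on the log2 scale, so that a change from the floor is a bound. Effects with an error are log2 differences from an additive limma model over all 6 arrays, with the standard error after ±. The TGF-β effects average over both drug settings and the SP600125 effect averages over the 3 TGF-β states. A gene was said to rise or fall when its Benjamini-Hochberg adjusted p over the 11731 genes tested was under 0.05. There were no replicates, so the error of the additive model is the departure of the arrays from additivity, and each p-value measures no more than the spread of these arrays. Where all arrays of 1 group are said to lie above or below those of another, the share of all genes with that order was not counted. Such orders are descriptions. In RNA from whole cultures, fewer cells with a transcript and less RNA per cell cannot be told apart.

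Array medians lay between 69.3 and 80.9. The control probe sets set the 0 h and 24 h arrays of the drug arm apart. The array with SP600125 alone, which both TGF-β pairs of that arm share, had an actin 3′/5′ ratio of 1.51 and a Gapdh 3′/5′ ratio of 0.88. Arrays other than these had actin ratios of 1.25 to 1.32 and Gapdh ratios of 0.78 to 0.80. Furthest apart was the array of SP600125 with 24 h of TGF-β. It had an 18S ribosomal RNA signal of 5878.2 against 506.5 to 881.5 on the other 5, an actin ratio of 1.89 and a Gapdh ratio of 0.98. Without that array the additive model called 0 genes of any kind in the TGF-β or SP600125 comparisons, with 2645 genes at an unadjusted p under 0.05 for TGF-β at 24 h and 1884 for SP600125, so each call below is lost with it. Leaving out the other 24 h array, that of TGF-β without drug, also gave 0 calls in these comparisons, with 2600 genes at an unadjusted p under 0.05 for TGF-β at 24 h, and leaving out either 12 h array gave 0 calls for TGF-β at 12 h. The part of the control probe signals in the results was not tested. All 6 B cell markers found, of 7 listed, were above the floor on every array, with summed signals between 44117.5 and 58493.4. The T cell markers Cd3d, Cd3g and Cd4 were under the floor on every array, as were the myeloid markers Itgam and Cd14 and the dendritic cell markers Batf3 and Xcr1. Above the floor on all 6 arrays were Flt3 (357.0 to 796.1) of the dendritic cell list and Csf1r (277.1 to 405.5), Adgre1 (171.7 to 496.6) and Cd68 (262.4 to 1481.5) of the macrophage and monocyte list, while Cd8a was above it on 3 arrays and Cd3e on 2. The dendritic cell markers Itgax and Siglech were above it on 4 arrays each and Zbtb46 on 3, all of them arrays with TGF-β. Itgax read 33.1 and 62.1 on the unstimulated arrays and 100 to 123.4 with TGF-β, and Siglech 40 and 70.1 against 78.3 to 163.9. Of the 4 dendritic cell markers tested, 0 were called for TGF-β, and their part in the results below was not tested. Lyz2 was above the floor on 3 arrays. Summed signals were 77.0 to 278.9 for 5 T cell markers, 612.2 to 1292.6 for 6 dendritic cell markers and 878.7 to 2436.8 for 6 macrophage and monocyte markers. The 6 plasma cell markers summed to 45648.2 to 59453, about as high as the B cell list. Of these, 5 were above the floor on all 6 arrays, Jchain (16906.9 to 27535.1) among them, and Prdm1 was above it on 5 arrays. Of the 4 macrophage markers tested, Cd68 rose with TGF-β at 24 h by 1.13 ± 0.25 and fell with SP600125, at -1.27 ± 0.20, and its part in the results below was not tested.

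TGF-β raised 4 or 5 of the 8 members tested, Cd83, Cd86 and Cd40 among them. Of the 8 members that could be tested, 4 rose at 12 h, namely Cd40, Cd86, Cd83 and Tnfrsf13b, where 2.6% of all genes tested rose. At 24 h the same 4 genes rose together with Icosl, so that 5 of 8 rose where 9.07% of all genes tested did. No member fell at either time, against 2.37% and 7.5% of all genes tested. The median effect over the 8 members was 1.199 at 12 h and 1.08 at 24 h, against 0.02 and 0.07 over all genes tested. The filter asked for signals above the floor on at least 2 arrays, which Cd80 met on 3 arrays, Cd86 on 5 and the other 6 tested members on all 6. Pdcd1lg2 was above the floor on 1 array and Tnfrsf17 on 0, so neither was tested. The 12 h calls of Cd40, Cd83 and Cd86 and the 24 h call of Icosl were lost when probe sets of a gene were averaged, when the filter was dropped, or when the variance prior had no intensity trend, and the last setting also ended the calls of Tnfrsf13b at 12 h and Cd40 at 24 h.

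**Figure D1:**
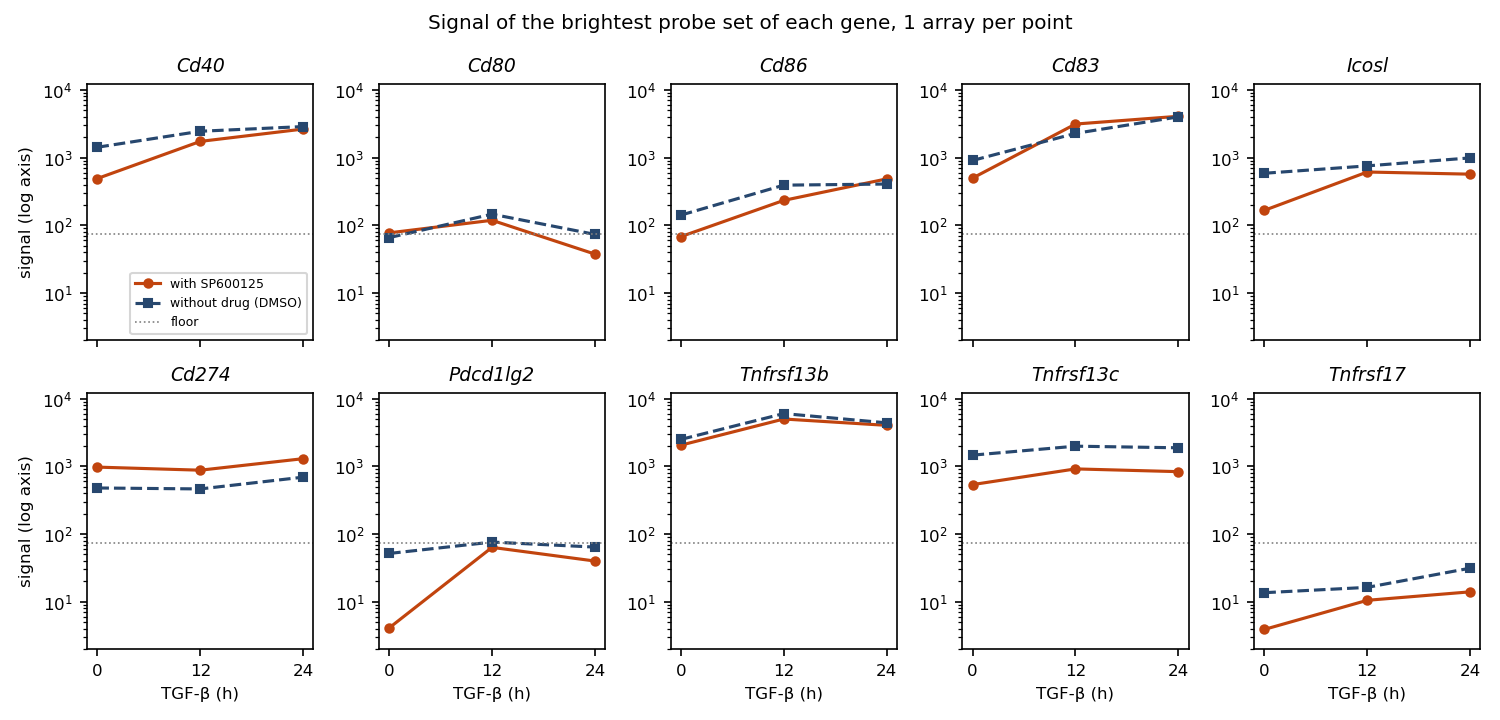
Signal of the brightest probe set of each of the 10 genes (log axis, linear array signal) against hours of TGF-β, with 1 array per point, SP600125 arrays as circles on solid lines and arrays without drug as squares on dashed lines. The dotted line is the floor of 74.2, and the lines for Cd83 climb in both arms to 4073.3 with SP600125 and 3993.5 without drug at 24 h.

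Cd83, a surface marker of activated B cells and mature dendritic cells that in mouse stabilises MHC class II and CD86 on the membrane, had the largest TGF-β effect of the 8 members at both times. Its signal over 0, 12 and 24 h of TGF-β was 498.2, 3128.2 and 4073.3 with SP600125, and without drug it was 907.4, 2276.9 and 3993.5. Every array with TGF-β was therefore above both arrays without it, and the lowest stimulated signal was 2.51-fold the highest unstimulated one. The increase over the unstimulated array of the same arm was 6.28-fold and 8.18-fold with SP600125, and 2.51-fold and 4.40-fold without drug, where each arm's 12 h and 24 h pairs share that array. In limma Cd83 rose by 1.99 ± 0.26 at 12 h (adjusted p = 0.00879) and by 2.58 ± 0.26 at 24 h (adjusted p = 0.00162), in 2 of 2 pairs each. Leaving out 1 array at a time kept the 24 h effect between 2.03 and 3.14. The 24 h call was lost without either TGF-β 24 h array, at an adjusted p of 0.141 in both cases, and the 12 h call was kept in 1 of the 6 fits.

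Cd40 rose at both times, and its 3 probe sets ran in parallel. On the brightest of them the signal was 491.1, 1734.3 and 2638.4 with SP600125 at 0, 12 and 24 h of TGF-β, and 1422.1, 2448.0 and 2871.2 without drug. The lowest array was thus the one with SP600125 alone, and by 24 h of TGF-β both arms had come to nearly the same signal. The rise was 3.53-fold and 5.37-fold with SP600125, and 1.72-fold and 2.02-fold without drug. In limma the effect was 1.30 ± 0.28 at 12 h (adjusted p = 0.0432) and 1.72 ± 0.28 at 24 h (adjusted p = 0.00746). The size depends on which unstimulated array is used. Without the SP600125-alone array the effect was 0.69 at 12 h and 1.11 at 24 h, and without the untreated array it was 1.91 and 2.33. With an array left out the 12 h call was kept in 1 of 6 fits and the 24 h call in 2. The other probe sets of Cd40 gave 24 h effects of 1.70 ± 0.24 and 1.84 ± 0.27 when each probe set was fitted on its own, and all 3 were called at both times.

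**Figure D2:**
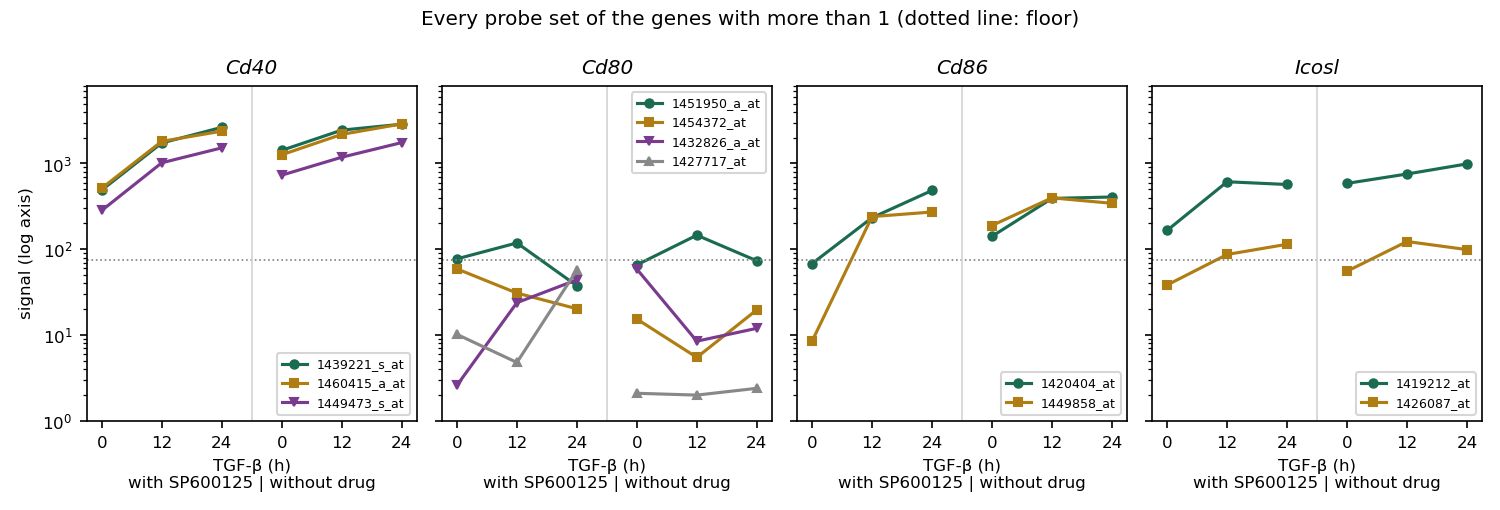
Signal (log axis, linear array signal) of every probe set of the 4 genes with more than 1, over 0, 12 and 24 h of TGF-β, with the SP600125 arrays on the left and the arrays without drug on the right of each panel. The 3 Cd40 probe sets climb in parallel in both arms, while 3 of the 4 Cd80 probe sets stay under the dotted floor of 74.2 on every array.

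Of the B7 molecules, Cd86 rose and Cd80 was not called. Cd86 is the B7 molecule that resting B cells already carry at low level and that activation increases early. Its brightest probe set read 68.1, 233.4 and 484.9 with SP600125 at 0, 12 and 24 h of TGF-β, and 141.5, 391.8 and 407.1 without drug. All 4 stimulated arrays were above both unstimulated ones, and the array with SP600125 alone was under the floor. The increase was at least 3.15-fold and at least 6.54-fold with SP600125, and 2.77-fold and 2.88-fold without drug. In limma Cd86 rose by 1.56 ± 0.33 at 12 h (adjusted p = 0.0374) and by 2.12 ± 0.33 at 24 h (adjusted p = 0.00612). Each call was lost in every one of the 6 fits with an array left out, where the 24 h effect lay between 1.57 and 2.66. The second Cd86 probe set read 8.5, 240.5 and 272.1 with SP600125 and 189.4, 397.8 and 343.7 without drug, and fitted on its own it gave 1.38 ± 0.31 at 12 h (adjusted p = 0.0545) and 1.37 ± 0.31 at 24 h (adjusted p = 0.0255).

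Cd80 was close to the floor throughout. Its brightest probe set read 77.4, 118.7 and 37.6 with SP600125 and 65.8, 146.1 and 73.5 without drug, so that in both arms the 12 h array was the highest of the 3. The effect was 0.80 ± 0.23 at 12 h (adjusted p = 0.0911) and -0.03 ± 0.23 at 24 h (adjusted p = 0.951). The difference of 24 h minus 12 h was -0.83 ± 0.23 (unadjusted p = 0.00692, adjusted p = 0.153). The other 3 probe sets of Cd80 were under the floor on all 6 arrays, with highest signals of 59.1, 58.8 and 57.2.

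Icosl, whose product engages ICOS on follicular helper T cells, rose at 24 h. Its signal was 166.3, 612.5 and 569.3 with SP600125 at 0, 12 and 24 h of TGF-β, and 586.7, 754.4 and 989.6 without drug. The array with SP600125 alone was far below the other 5, and the stimulated arrays of the drug arm, at 612.5 and 569.3, lay near the untreated one. The increase over the unstimulated array was 3.68-fold and 3.42-fold with SP600125, and 1.29-fold and 1.69-fold without drug. The limma effect was 1.12 ± 0.33 at 12 h (adjusted p = 0.0959) and 1.26 ± 0.33 at 24 h (adjusted p = 0.0366). At 12 h it was called when genes had to be above the floor on all arrays or with a pseudocount of 16. The 24 h call was lost with any 1 array left out, and the effect was then 0.63 without the SP600125-alone array and 1.90 without the untreated array. A second Icosl probe set read 38.4, 87.1 and 114.5 with SP600125 and 55.6, 123.3 and 99.2 without drug, and its effects of 0.48 ± 0.25 and 0.52 ± 0.25 were not called.

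Promoter windows are given for the members that passed a test in any comparison and that the sequence table holds, since the study turns on Smad signalling and on JNK, which acts on AP-1. They come from RefSeq on GRCm38.p6 and run from 250 bases before to 50 bases after the annotated start, in the direction of transcription. Each was searched on both strands for a κB motif (GGG, any 3 bases, then TTCC), an AP-1 motif (TGANTCA) and a Smad motif (CAGAC). Capitals mark the matches, none of which overlapped another. Of 27025 promoters of the same length in the table, 5.52% held the κB motif, 7.93% the AP-1 motif and 49.7% the Smad motif. For Icosl the window is chr10:78069118-78069417 on the plus strand, for Cd274 chr19:29367188-29367487 on the plus strand, for Tnfrsf13b chr11:61126505-61126804 on the plus strand and for Tnfrsf13c chr15:82224331-82224630 on the minus strand.
Icosl: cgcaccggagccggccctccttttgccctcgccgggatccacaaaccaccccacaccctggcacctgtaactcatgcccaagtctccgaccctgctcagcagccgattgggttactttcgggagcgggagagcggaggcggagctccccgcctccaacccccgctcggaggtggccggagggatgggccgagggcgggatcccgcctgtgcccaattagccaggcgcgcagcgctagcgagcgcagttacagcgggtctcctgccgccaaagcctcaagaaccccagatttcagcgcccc
Cd274: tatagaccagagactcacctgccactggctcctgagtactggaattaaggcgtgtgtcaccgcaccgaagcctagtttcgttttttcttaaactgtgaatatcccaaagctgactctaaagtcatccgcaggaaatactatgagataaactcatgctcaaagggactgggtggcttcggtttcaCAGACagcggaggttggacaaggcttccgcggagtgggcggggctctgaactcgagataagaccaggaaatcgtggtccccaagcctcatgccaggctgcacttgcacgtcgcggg
Tnfrsf13b: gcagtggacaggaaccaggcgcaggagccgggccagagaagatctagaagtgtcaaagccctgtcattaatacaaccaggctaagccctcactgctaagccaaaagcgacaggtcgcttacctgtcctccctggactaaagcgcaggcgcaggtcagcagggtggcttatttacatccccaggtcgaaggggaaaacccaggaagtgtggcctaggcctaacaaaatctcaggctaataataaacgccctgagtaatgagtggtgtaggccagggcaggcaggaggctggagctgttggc
Tnfrsf13c: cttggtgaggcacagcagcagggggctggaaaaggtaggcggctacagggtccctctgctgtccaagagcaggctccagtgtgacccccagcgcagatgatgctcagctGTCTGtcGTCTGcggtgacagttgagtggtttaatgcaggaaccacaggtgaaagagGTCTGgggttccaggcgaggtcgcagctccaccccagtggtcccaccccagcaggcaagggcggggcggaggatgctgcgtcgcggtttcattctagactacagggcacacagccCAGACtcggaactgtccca
Tnfrsf13c held 4 Smad matches, at positions -141, -134, -84 and 32 relative to the start, and Cd274 held 1 at -66. The Icosl and Tnfrsf13b windows held no match to these letters. The table had windows for 7 of the 10 members, and among the other 3 of these Cd80 held 1 AP-1 match at -42, while Pdcd1lg2 and Tnfrsf17 held none. These are matches of letters in 1 window and not sites shown to be bound.

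Tnfrsf13b, which encodes TACI, the receptor of BAFF and APRIL that takes part in class switching and in limiting B cell numbers, rose at both times. Its signal was 2048.9, 4988.2 and 4020.4 with SP600125 at 0, 12 and 24 h of TGF-β, and 2492.6, 5998.1 and 4379.1 without drug. The 12 h array was the highest of its arm in both arms, and every stimulated array was above both unstimulated ones. The increase at 12 h and 24 h was 2.43-fold and 1.96-fold with SP600125, and 2.41-fold and 1.76-fold without drug. In limma TACI transcript rose by 1.28 ± 0.10 at 12 h (adjusted p = 0.00107) and by 0.89 ± 0.10 at 24 h (adjusted p = 0.00232). With an array left out the effects stayed between 1.23 and 1.32 at 12 h and between 0.82 and 0.97 at 24 h, while the call was kept in 2 of 6 fits at 12 h and 3 of 6 at 24 h.

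Tnfrsf13c encodes BAFF-R, the receptor through which BAFF keeps mature B cells alive. Its signal was 536.5, 914.8 and 833.0 with SP600125 at 0, 12 and 24 h of TGF-β, and 1459.9, 1980.8 and 1874.3 without drug. Every array of the drug arm was below every array without drug, an order whose share over all genes was not counted. The TGF-β effect was 0.61 ± 0.15 at 12 h (adjusted p = 0.0573) and 0.50 ± 0.15 at 24 h (adjusted p = 0.0553), neither of which was called, although both were when genes had to be above the floor on all arrays or when a pseudocount of 16 replaced the floor. Tnfrsf17, which encodes BCMA, the receptor typical of plasma cells, had signals of 3.9, 10.5 and 14.0 with SP600125 and 13.6, 16.3 and 31.3 without drug, all under the floor.

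SP600125 moved BAFF-R and PD-L1 transcripts in opposite directions at each of the 3 TGF-β states. Of the 8 members tested, 1 fell and 1 rose with the drug, where 3.69% of all genes tested fell and 3.99% rose. Tnfrsf13c fell, at -1.24 ± 0.12 (adjusted p = 0.00155), and was 2.72-fold, 2.17-fold and 2.25-fold lower with SP600125 at 0, 12 and 24 h of TGF-β, in 3 of 3 pairs. Its effect stayed between -1.31 and -1.14 with an array left out, and the call was kept in 2 of those 6 fits. Cd274, which encodes PD-L1, rose with the drug by 0.95 ± 0.13 (adjusted p = 0.00708).

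The Cd274 signal was 972.0, 875.6 and 1295.2 with SP600125 at 0, 12 and 24 h of TGF-β, and 478.3, 463.0 and 690.8 without drug. The lowest array of the drug arm was above the highest array without drug, again with no share over all genes counted. The ratio of the drug array to its partner was 2.03, 1.89 and 1.87 at the 3 states. With an array left out the effect stayed between 0.91 and 0.97, while the call was lost in each of the 6 fits, with adjusted p-values between 0.0771 and 0.226. Cd274 was not called for TGF-β, at -0.10 ± 0.16 for 12 h (adjusted p = 0.797) and 0.47 ± 0.16 for 24 h (adjusted p = 0.0856). Pdcd1lg2, the gene next to Cd274 on chromosome 19 with 0 protein-coding genes between them in the RefSeq table, encodes PD-L2. It read 4.1, 63.5 and 39.9 with SP600125 and 51.6, 76.0 and 64.1 without drug, above the floor only on the array of TGF-β at 12 h without drug.

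**Figure D3:**
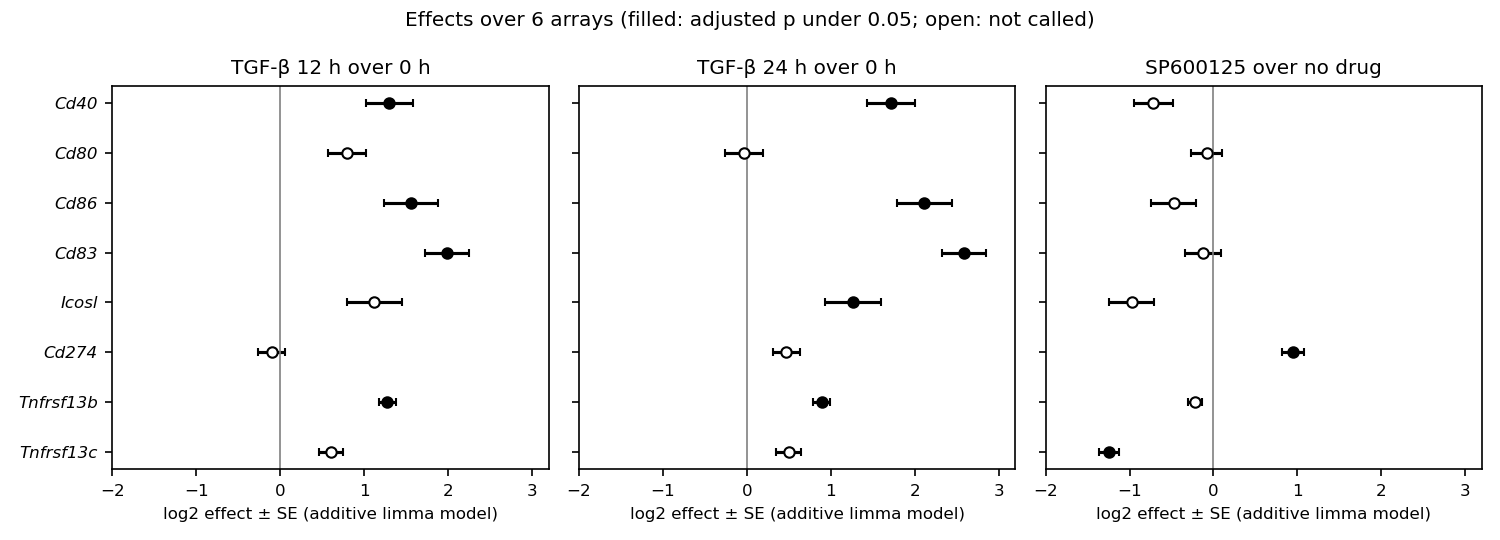
Log2 effects with standard errors from the additive limma model over 6 arrays for the 8 members tested, for TGF-β at 12 h, TGF-β at 24 h and SP600125, with filled points where the adjusted p was under 0.05. The largest TGF-β effect is that of Cd83 at 24 h (2.58), and the called SP600125 effects are those of Cd274 (0.95) and Tnfrsf13c (-1.24).

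The remaining 6 members were not called for SP600125. Icosl had an effect of -0.97 ± 0.27 (adjusted p = 0.0693) and Cd40 one of -0.72 ± 0.23 (adjusted p = 0.105), both lower with the drug in 3 of 3 pairs on the brightest probe set. Fitted on its own in limma, the second Icosl probe set gave -0.10 ± 0.21 (adjusted p = 0.828). The other Cd40 probe sets gave -0.61 ± 0.19 and -0.59 ± 0.22, and the second Cd86 probe set -0.80 ± 0.26 (adjusted p = 0.110), none of them called. Cd86 had -0.48 ± 0.27 (adjusted p = 0.321) and Tnfrsf13b -0.22 ± 0.08 (adjusted p = 0.150). Cd83 had -0.13 ± 0.22 (adjusted p = 0.773), with a 95% interval from -0.62 to 0.37, and Cd80 had -0.08 ± 0.19 (adjusted p = 0.839). The median SP600125 effect over the 8 members was -0.35, against 0.04 over all genes tested.

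The drug difference of each member was also read at each TGF-β state, from 1 pair of arrays. At 0 h, 3 members were at least 2-fold lower with SP600125, namely Icosl, Cd40 and Tnfrsf13c, and Cd274 was at least 2-fold higher, out of 9 members above the floor on at least 1 array. Cd86 was at least 1.91-fold lower on its brightest probe set and at least 2.55-fold lower on its second, where the floor sets the bound. Among all 13060 such genes 1.17% were 2-fold lower and 2.84% 2-fold higher in that pair of arrays. After TGF-β, at either time, Tnfrsf13c alone among these 9 was 2-fold lower and none was 2-fold higher. Of all such genes 1.04% were lower and 1.63% higher at 12 h, and 1.78% lower and 2.92% higher at 24 h. For Cd40 the log2 difference of SP600125 minus no drug was -1.53, -0.50 and -0.12 over 0, 12 and 24 h. For Icosl it was -1.82, -0.30 and -0.80, and for Cd83 it was -0.87, 0.46 and 0.03. The other probe sets of Cd40 gave -1.29, -0.27 and -0.28, and -1.36, -0.21 and -0.20. The second Icosl probe set was under the floor on both arrays at 0 h and gave -0.50 at 12 h and 0.21 at 24 h.

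**Figure D4:**
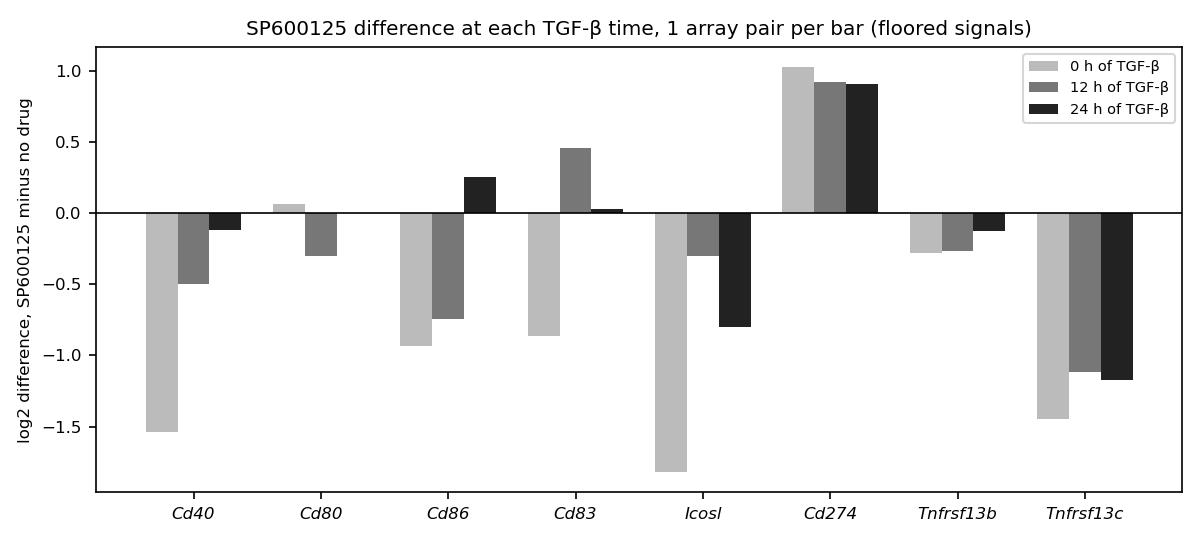
Log2 difference of SP600125 minus no drug on floored signals for the 8 members tested, with 1 bar per pair of arrays at 0, 12 and 24 h of TGF-β (light to dark). Cd40 goes through -1.53, -0.50 and -0.12, whereas Cd274 stays near 1.02, 0.92 and 0.91, and the 24 h bar of Cd80 has no height because both signals were at the floor.

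The TGF-β by SP600125 interaction, in which 12 h and 24 h stand as repeats of 1 TGF-β state, was called for 0 of 8 members and for 0% of all genes tested. Its error comes only from the differences between 12 h and 24 h within each arm. Any change between those times is part of that error, and the spread of the unstimulated arrays is not. At an unadjusted p under 0.05 it took in 2 of the 8 members, where 2.69% of all genes tested passed. These were Icosl, with an interaction of 1.27 ± 0.38 (unadjusted p = 0.0226, adjusted p = 0.999), and Cd40, with 1.22 ± 0.42 (unadjusted p = 0.0352, adjusted p = 0.999), both from limma. These are the brightest probe sets. The second Icosl probe set gave -0.15 ± 0.39 (unadjusted p = 0.722, adjusted p = 0.999), and the other Cd40 probe sets gave 1.02 ± 0.39 (unadjusted p = 0.0508, adjusted p = 0.999) and 1.15 ± 0.53 (unadjusted p = 0.0856, adjusted p = 0.999) in limma. A positive value means a larger TGF-β difference with the drug than without it. The interaction was 1.11 ± 0.54 for Cd83, 0.68 ± 0.69 for Cd86 and 0.30 ± 0.25 for Tnfrsf13c. It was negative for Cd274, at -0.11 ± 0.53, and for Cd80, at -0.21 ± 0.72. For Tnfrsf13b it was 0.09 ± 0.36, with a 95% interval from -0.85 to 1.03. Since that interval holds no spread of the unstimulated arrays, it cannot show whether the response to TGF-β was equal in the 2 arms.

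The rule of the study design counts a gene as dependent on JNK when SP600125 made its increase in signal over 75% smaller at every time with a 2-fold induction. Of the 10 members, 4 were induced at least 2-fold without drug at 12 h or 24 h, namely Cd40, Cd86, Cd83 and Tnfrsf13b, and 0 of these met it. The share of all induced genes that met the rule was not counted. The 0 of 4 therefore does not set these members apart from other genes, and whether they depend on JNK was not tested. In single pairs without drug 3 of 9 members were at least 2-fold higher at 12 h and 3 at 24 h, where 2.96% and 4.95% of all genes above the floor were. In the drug arm 5 of 9 were 2-fold higher at 12 h and 4 at 24 h, against 2.24% and 4.2%. No member was 2-fold lower with TGF-β in either arm, where 1.31% and 1.73% of all such genes were without drug, and 1.18% and 1.83% with it, at the 2 times. The Cd83 increase was 92.0% larger with SP600125 at 12 h and 15.8% larger at 24 h, and the Cd40 increase at 24 h was 48.2%, 14.8% and 21.2% larger on its 3 probe sets. The Cd86 increase was at most 36.4% smaller with the drug at 12 h and at least 54.6% larger at 24 h, bounds set by the floor of its SP600125-alone array. The Tnfrsf13b increase was 16.2% smaller at 12 h.

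Between 12 h and 24 h of TGF-β, 0 of the 8 members were called, where 0.017% of all genes tested rose and 0% fell. At an unadjusted p under 0.05, 3 of the 8 members passed, against 15.3% of all genes tested. Cd274 was 0.57 ± 0.16 higher at 24 h than at 12 h (adjusted p = 0.159), and Tnfrsf13b had a difference of -0.38 ± 0.10 (adjusted p = 0.145), beside the -0.83 of Cd80. The direction was the same in both arms for each of these 3 genes. In the drug arm the brightest Cd86 probe set was 2.08-fold higher at 24 h than at 12 h and the second 1.13-fold. Cd86 was thus 1 of 9 members past 2-fold by its brightest probe set, where 1.85% of all genes above the floor were and 1.16% were 2-fold lower. Without drug no member was 2-fold higher or lower, where 1.46% and 0.766% of all such genes were.

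Genes that signal below CD40 and the BAFF receptors, most of them parts of the NF-κB pathways, moved with TGF-β as well. Of 20 such genes found and tested, limma called 2 as higher at 12 h and 11 at 24 h, and 0 as lower, where 2.6% and 9.07% of all genes tested rose. Their median effect at 24 h was 0.69 against 0.07 over all genes tested. Relb, the partner of p52 in the alternative NF-κB pathway, rose at 24 h by 1.62 ± 0.24, with signals of 273.4, 500.6 and 1054.6 with SP600125 and 247.8, 447.3 and 608.1 without drug. Traf1, an adaptor of TNF receptors that NF-κB induces, rose by 1.28 ± 0.28, and Nfkbia, which encodes the inhibitor IκBα, by 1.28 ± 0.10. Pim2, a survival kinase induced by BAFF, rose by 1.26 ± 0.18. With SP600125, Nfkb2, the precursor of p52, rose by 1.23 ± 0.14 and Bcl2l1, which encodes BCL-XL, by 0.43 ± 0.11, and these 2 of 20, where 3.99% of all genes tested rose, were named after their values were seen.

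Of the further costimulatory genes of the B7 and TNF families 17 were found and 12 tested. At 12 h 1 of the 12 rose and at 24 h 3 did, where 2.6% and 9.07% of all genes tested rose, and 0 fell at either time. The median at 24 h was 0.39, against 0.07 over all genes tested. Nectin2, a ligand of DNAM-1 and TIGIT on T and NK cells, rose by 1.24 ± 0.24 at 12 h and 1.40 ± 0.24 at 24 h. Icam1, the adhesion ligand of LFA-1, rose at 24 h by 1.18 ± 0.18, and Lgals9, which encodes galectin-9, by 0.84 ± 0.23. Lgals9 read 42.8, 31.8 and 117 with SP600125 at 0, 12 and 24 h of TGF-β, and 66.5, 73.1 and 151.2 without drug. It passed the filter only through its 24 h arrays, so its effect is a bound. Its call, 1 of the 3 at 24 h, is therefore no support. With SP600125, 3 of the 12 fell, where 3.69% of all genes tested did, namely Tnfsf9 (-1.16 ± 0.21), which encodes 4-1BB ligand, Cd48 (-0.60 ± 0.11) and Btla (-0.52 ± 0.12), named after their values were seen. Of the ligands and counter-receptors of the members, 2 of the 6 found could be tested, Ctla4 and Tnfsf13b, and limma called 0 of them. At an unadjusted p under 0.05 for TGF-β at 24 h there was 1, where 3671 of the 11731 genes tested passed in either direction. That 1 was Tnfsf13b, which encodes BAFF itself, with a 24 h effect of 0.73 ± 0.26 (adjusted p = 0.0940).

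Of 9 other surface genes of B cell activation that were tested, 3 rose at 12 h and 6 at 24 h, and 0 fell, where 2.6% and 9.07% of all genes tested rose. Their median effect at 24 h was 1.13, against 0.07 over all genes tested. Those not called at 24 h were Fcer2a (-0.23 ± 0.32), Il4ra (0.33 ± 0.24) and Cr2 (0.36 ± 0.19). Cd69, an early activation antigen, rose at 24 h by 1.82 ± 0.33, and Il21r, the receptor of the T follicular helper cytokine IL-21, by 1.17 ± 0.18. The MHC class II genes H2-Eb1 and H2-Ab1, which present antigen to the T cells that carry CD28 and ICOS, rose by 1.53 ± 0.24 and 1.51 ± 0.22. Both also fell with SP600125, at -1.05 ± 0.19 for H2-Eb1 and -1.10 ± 0.18 for H2-Ab1, as did the complement receptor gene Cr2, at -0.99 ± 0.15. These 3 of 9 stand beside 3.69% of all genes tested. Of the 6 B cell markers, Cd79a and Ms4a1 fell with the drug too, at -0.57 ± 0.13 and -0.99 ± 0.09, whereas Ighm (0.19 ± 0.08), Blk (0.42 ± 0.21), Cd79b (0.05 ± 0.11) and Pax5 (-0.20 ± 0.24) were not called. Of the 6 plasma cell markers Jchain and Xbp1 fell, at -0.44 ± 0.09 and -0.42 ± 0.08. Sdc1 (-0.47 ± 0.21), Prdm1 (-0.67 ± 0.21), Irf4 (-0.82 ± 0.37) and Mzb1 (0.06 ± 0.10) were not called. The part of these identity genes in the fall of Tnfrsf13c was not tested.

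Genes whose signals ran most like those of the 3 members with the widest range were found by Pearson r of log2 signal over the 6 arrays, among 3162 genes that varied by at least 1 log2. The 6 points share the same arrays, and r is given as a description. For Cd83 these were Cytip (r = 0.996), Elf1 (0.995) and A630072M18Rik (0.989), and 54 genes reached at least 0.95. Cytip, which encodes a regulator of leukocyte adhesion, read 176.4, 697.0 and 942.1 with SP600125 and 247.1, 525.8 and 832.7 without drug. It was higher with the drug at both TGF-β times and lower at 0 h. Cd83 was likewise lower at 0 h and higher at 12 h, but at 24 h its ratio of drug to no drug was only 1.02. For Cd86 they were Meis3 (0.991), Mlycd (0.983) and Itga4 (0.981), with 34 genes at 0.95. For Icosl they were Arl16 (0.998), H2-Eb1 (0.991) and Fas (0.989), with 32 genes at 0.95. H2-Eb1 read 1889.2, 7158.4 and 6888.1 with SP600125 and 6075.8, 9845.7 and 13942.1 without drug, and like Icosl it was lowest on the array with SP600125 alone.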

How the data were processed

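Gene expression was measured in A20 cells on 6 arrays, 1 per condition, grouped by their titles. The deposited values are linear intensity signals, 1 per probe set and array, from GCOS 1.2, as the submitters' processing notes name it without settings. The 10 genes and the gene lists were chosen with earlier results of these data known.

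Of 45101 probe sets, 34958 had 1 gene symbol in the platform annotation, 932 had several and 9211 were not listed. The brightest probe set stood for each of 18194 genes. The floor, the filter of at least 2 arrays above it and the 2-fold and 75% rules are as stated above. The additive model (3 TGF-β states and drug) in limma 3.58.1 under R 4.3.3 left 2 residual degrees of freedom, to which an intensity-trended variance prior added 5.97. The interaction model had 2 and a prior of 2.79. The scripts were tested on simulated data. Single pairs have no test, and the number of arrays limits the precision.

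All 10 genes with their probe sets are named. Of each list, the genes named are up to 4 called at 24 h with the largest effects, unless stated otherwise. Alternatives were 2 other floors, 2 scalings, 2 uses of probe sets, 2 filters, no intensity trend and each array left out.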

Additional observations from a re-analysis of the deposited data

Results flagged for a closer look

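Cd83 was picked out because its SP600125 difference was negative without TGF-β and positive after 12 h of it, with almost none after 24 h. The drug array without TGF-β had 24 h of SP600125, whereas that with 12 h of TGF-β had 12 h of it. On the log2 scale, SP600125 minus no drug, the difference was -0.87 without TGF-β, against 0.46 after 12 h of it and 0.029 after 24 h, with 1 pair of arrays at each time. The change of direction between the times was not tested by itself. The interaction over all 6 arrays was 1.11 ± 0.54, with an adjusted p of 0.999 in limma.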

How the results depend on the processing

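The number of members called depended on the processing. For TGF-β at 12 h it was 4, and 1 when a gene's probe sets were averaged, 1 with no filter beyond 1 array above the floor, 0 with no intensity trend, and 0 to 3 with an array left out. It was 5 of 6 among genes above the floor on all arrays and 6 of 8 with a pseudocount of 16 in place of the floor, where Icosl and Tnfrsf13c were called as well. For TGF-β at 24 h it was 5, and 6 in both of those settings, where Tnfrsf13c and, in the stricter filter, Cd274 were called as well, 3 with no intensity trend and 0 to 3 with an array left out. For SP600125 it was 2, and 4 among genes above the floor on all arrays, 4 with the pseudocount, and 0 to 1 with an array left out. The added SP600125 calls in both of those settings were Icosl and Cd40, and Icosl was also called with arrays scaled to equal medians (-1.05, adjusted p = 0.0478 in limma). Members called for 24 h minus 12 h and for the interaction were 0 in every setting, as was the number with a reduced induction. The interaction could not be estimated without either unstimulated array. With a floor at the 25th percentile, 2 members instead of 1 passed 2-fold at 24 h over 12 h in the drug arm, since Cd80, at 37.6 and 118.7, was then lower by that much, and 6 members instead of 4 passed it for SP600125 at 0 h. The 12 h calls of the activation list were 3, and 0 with averaged probe sets, no filter or no intensity trend, and its 24 h calls were 6, and 2 with no intensity trend. The 24 h calls of the signalling list were 11, and 8 in each of those 3 settings. With an array left out the 24 h calls were 0 to 4 for the activation list, 0 to 2 for the signalling list and 0 for the costimulatory partners.

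With an array left out, effects that changed sign were those of SP600125 on Cd80 (-0.15 to 0.030) and Cd83 (-0.42 to 0.24), of TGF-β at 24 h on Cd80 (-0.14 to 0.075), of 24 h minus 12 h on Cd40 (-0.029 to 0.86) and Icosl (-0.36 to 0.65), and the interactions of Cd274 (-0.40 to 0.18), Cd80 (-0.70 to 0.28) and Tnfrsf13b (-0.14 to 0.32). None of these was called. Scaling to equal medians moved the all-gene split from 305 genes up and 278 down to 253 and 505 at 12 h, from 1064 and 880 to 740 and 1352 at 24 h, and from 468 and 433 to 377 and 718 for SP600125, and the median of all genes at 24 h from 0.07 to -0.03. With no intensity trend the 12 h calls over all genes were 22 up and 0 down, and among genes above the floor on all arrays they were 602 up and 571 down. They were 60 up and 26 down with averaged probe sets, and 58 up and 20 down with no filter. No paired analysis was possible because no condition was repeated and the replicate numbers pair nothing. The causes of these changes were not tested.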
